A study of Homo sapiens with 9 samples.

Results

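The immediate early response genes examined here are 10 of the 58735 genes counted in 786-0 cells: EGR1, FOS, FOSB, FOSL1, JUN, JUNB, ATF3, IER2, IER3 and DUSP1. They were chosen by name with their counts in the same untreated, PT2385-treated and HIF2α knockout libraries already known, so their levels and differences are described here and carry no test. 786-0 is a human clear cell renal carcinoma line that lacks functional VHL and makes HIF2α but not functional HIF1α at ordinary oxygen. RNA was sequenced from untreated parental cells (WT), from WT cells given 10 µM PT2385 for 48 h, and from cells of this line with HIF2α knocked out (KO), 3 libraries to a group. PT2385 is a small molecule that prevents HIF2α from pairing with HIF1β. Every group, the KO included, was kept at 21% oxygen for 48 h in medium with serum, and the labels mention neither serum starvation nor a growth factor pulse. How the KO was made, and whether it is a single clone, is not given in the sources used here. The labels do not say whether replicates were separate cultures, so errors measure only the spread between these libraries.

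Immediate early genes are transcribed within minutes of a growth factor, serum, cytokine or stress signal, from transcription machinery that is already in the cell and needs no new protein. Serum response factor with its ETS-family partners, acting at CArG boxes downstream of ERK, and CREB, acting at cAMP response elements, drive many of them, and their messages are short-lived. The products are largely transcription factors, among them the FOS and JUN families whose dimers form AP-1, and inhibitors that close the loop, such as the phosphatase DUSP1, which removes the activating phosphates from MAP kinases. In unstimulated growing cells these genes give a steady-state level, which is what these libraries hold.

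RefSeq promoters (GRCh38.p14, 250 bases before to 50 bases after a transcription start) were found for 8 of the 10 genes, with 9 starts in all because ATF3 has more than 1. FOSL1 and IER3 had no entry. The 150 bases before the start are shown for the 4 genes that set out the range of the results: EGR1, which was higher in PT2385-treated cells, DUSP1, which was lower in both altered groups, FOS, which was barely detected, and JUN, which was abundant. Each runs 5′ to 3′ on the strand of its gene, and capitals mark a CArG box in EGR1, a cAMP response element and a TATA box in DUSP1, and a TATA box in FOS. The windows are chr5:138465329-138465478 on the plus strand, chr5:172771196-172771345 on the minus strand, chr14:75278678-75278827 on the plus strand and chr1:58784048-58784197 on the minus strand.
EGR1: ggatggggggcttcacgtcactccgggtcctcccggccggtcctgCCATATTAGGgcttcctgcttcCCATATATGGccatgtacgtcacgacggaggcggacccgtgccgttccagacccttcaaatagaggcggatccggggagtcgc
DUSP1: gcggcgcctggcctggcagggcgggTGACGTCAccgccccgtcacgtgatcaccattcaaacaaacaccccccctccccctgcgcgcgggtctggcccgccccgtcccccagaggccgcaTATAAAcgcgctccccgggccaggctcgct
FOS: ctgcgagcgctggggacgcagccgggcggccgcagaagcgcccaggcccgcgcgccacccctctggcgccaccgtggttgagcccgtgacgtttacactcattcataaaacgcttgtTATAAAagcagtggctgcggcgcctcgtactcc
JUN: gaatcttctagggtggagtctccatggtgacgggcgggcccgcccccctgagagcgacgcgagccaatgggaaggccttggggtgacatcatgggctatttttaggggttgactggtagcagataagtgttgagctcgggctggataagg

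Motifs were searched on both strands over the whole 300 bases. The CArG box was found in 1 of the 9 member promoters, that of EGR1, and in 1.29% of all 35116 promoters. EGR1 held 2 of them, 105 to 96 and 83 to 74 bases before the start. The cAMP response element (TGACGTCA) was found in 1 member promoter, that of DUSP1, and in 1.85% of all promoters. A TATA box (TATAAA) was found in 5 of the 9, those of FOS, FOSB, JUNB, DUSP1 and 1 start of ATF3, against 11.5% of all promoters. In the first 4 of these it began 33 to 30 bases before the start, whereas in ATF3 it lay 230 to 225 bases before. The core letters of a hypoxia response element (ACGTG or GCGTG) were found in 7 of 9 member promoters and in 48.4% of all promoters, and 1 of the matches in DUSP1 overlaps another on the opposite strand. The AP-1 site (TGACTCA or TGAGTCA) was found in 0 of 9 and in 4.95% of all promoters. These matches are letters in a window and do not show that a factor binds there. Only exact matches were counted, so variant sites and sites outside the 300 bases were missed. A motif not found here is therefore not shown to be absent from the gene.

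**Figure D1:**
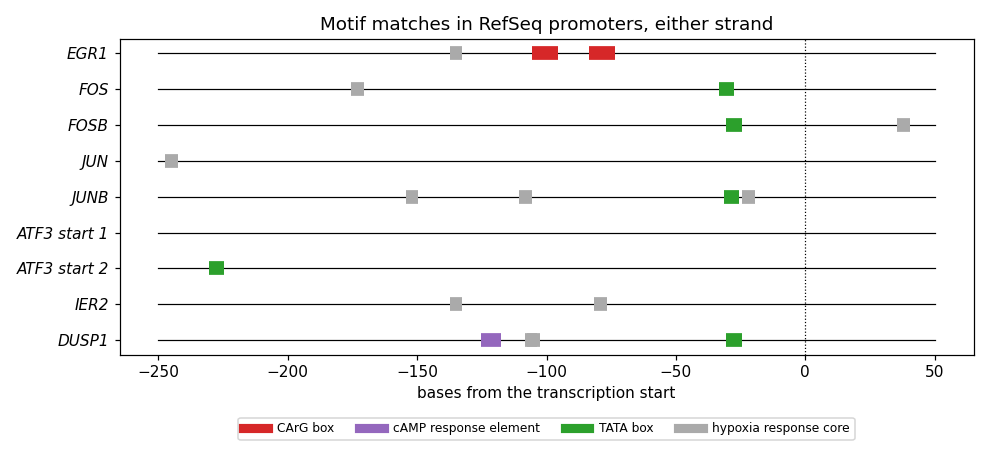
Motif matches in the 9 RefSeq promoters of 8 immediate early genes, with the x axis in bases from the transcription start and 1 row per start. Coloured blocks mark matches on either strand, and the 2 CArG boxes stand in EGR1 alone while a TATAAA match stands in 5 of the 9 rows.

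The 9 libraries held 11881000 to 14730081 counts, TMM factors lay between 0.988 and 1.02, and mitochondrial genes took 0.960% to 1.18% of counts. EPAS1, which encodes HIF2α (ENSG00000116016, chromosome 2, 46293667 to 46386697), was at 271, 264 and 232 counts per 1000000 counts of the TMM-scaled library (CPM) in the WT, at 247, 247 and 220.4 in PT2385-treated cells and at 20.2, 25.1 and 21.0 in the KO. It was 3.52 ± 0.0963 (SE) log2 units lower in the KO than in the WT (edgeR, adjusted p = 2.15e-09), with an adjusted p of 0.459 for PT2385, which acts on the protein. Markers of the renal carcinoma line were present in every group, with summed levels of 6242 to 6864 CPM for 9 markers, of which CA9 was at or under 3 counts in every library. Most of each sum was VIM, at means of 4733, 4396 and 4257 CPM in the WT, treated and KO groups, so the sums hide changes of single markers. Of the 8 tested, 3 were called higher and 1 lower with PT2385, beside 3.08% and 4.62% of all genes (edgeR, adjusted p under 0.05). In the KO against the WT 3 were called higher and 2 lower, beside 14.7% and 15.4%. Blood cell markers summed to at most 0.658 CPM and endothelial markers to at most 0.167 CPM, while 4 fibroblast and pericyte markers summed to 6.91 to 8.89 CPM in the WT, 8.38 to 10.5 in treated cells and 2.01 to 3.08 in the KO. Both of these that were tested, PDGFRB and COL1A1, were called lower in the KO (adjusted p = 4.57e-05 and 0.00346). COL1A2 and DCN, also among these markers, had 0 counts in every library. The part of PDGFRB and COL1A1 in the KO differences below was not tested.

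Expressed per kilobase of transcript, so that genes can be compared with each other, the levels of the 10 genes in the WT spanned more than 3 orders. FOSL1, a FOS-family subunit of AP-1 that accumulates under lasting ERK activity, was at 76.6 ± 11.3 CPM per kilobase (SD, n = 3). Next came IER3, a regulator of cell survival under stress, at 59.3 ± 5.88 CPM per kilobase, and JUN, the founding AP-1 subunit of its family, at 47.5 ± 5.73. DUSP1 was at 40.9 ± 5.32 and JUNB, a weaker activator than JUN, at 35.8 ± 3.82 CPM per kilobase. From FOSL1 down to JUNB each gene overlapped its neighbour in the order across the WT libraries. IER2, a nuclear protein induced by serum, followed at 23.6 ± 0.970 CPM per kilobase, below every WT value of JUNB. ATF3, a stress-induced bZIP factor that often represses its targets, was at 5.14 ± 1.43 CPM per kilobase and overlapped neither neighbour.

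The classical serum-response factors lay far below. EGR1, a zinc finger factor, was at 0.248 ± 0.148 CPM per kilobase in the WT, FOSB at 0.103 ± 0.0468 and FOS at 0.0654 ± 0.0813, and these 3 overlapped each other in the order. Among 29838 genes with reads, the WT level of FOSL1 stood at percentile 97.5 and that of JUN at percentile 95.3, while EGR1 stood at percentile 37.2 and FOS at percentile 25.8. The order changed in the altered groups mainly at DUSP1, which stood 4th in the WT and 6th in both PT2385-treated cells and the KO, at 24.6 and 15.5 CPM per kilobase. In the KO, DUSP1 stood at percentile 84.7 against 94.3 in the WT.

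**Figure D2:**
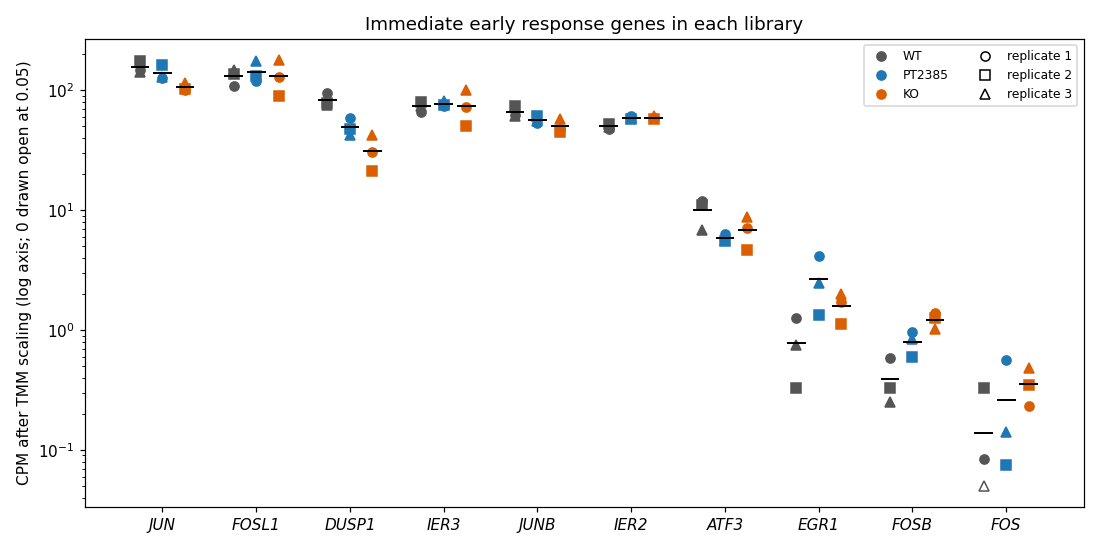
CPM after TMM scaling on a log axis for each of the 10 genes, with the WT in grey, PT2385 in blue and the KO in orange, a symbol for each replicate number and a line at the group mean. 7 genes lie above 4 CPM in every library, while EGR1, FOSB and FOS stay below 5 CPM, and FOS is at 0 in WT replicate 3.

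AP-1 is a dimer, so the make-up of each family was also expressed as a share of its summed CPM per kilobase. FOS and FOSB together made up 0.102% ± 0.0557 of the FOS family in the WT, 0.205% ± 0.119 in PT2385-treated cells and 0.345% ± 0.0718 in the KO. The rest was FOSL1, at 45.5% ± 4.04 in the WT, 49.3% ± 5.20 with PT2385 and 51.8% ± 6.92 in the KO, and the related FOSL2. In the JUN family, JUN took 36.9% ± 0.843 in the WT, 37.9% ± 1.64 with PT2385 and 32.7% ± 2.64 in the KO. JUNB took 27.9% ± 0.540, 27.5% ± 1.10 and 27.4% ± 3.89 in the same order, and JUND took the remainder. FOS-family message was almost wholly FOSL1 and FOSL2 in each group.

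DUSP1 (ENSG00000120129, chromosome 5, 172768096 to 172771195) differed more from the WT in the KO than any other of the 7 well-counted members. Its level was 94.6, 78.0 and 74.5 CPM in the WT, 58.4, 47.5 and 42.4 CPM in PT2385-treated cells and 30.7, 21.1 and 41.9 CPM in the KO. All 3 treated and all 3 KO libraries lay below all 3 WT libraries, and the KO libraries lay below the treated ones, although KO replicate 3 was within 1 CPM of treated replicate 3. The fitted log2 difference from the WT was -0.74 ± 0.119 (SE) with PT2385 and -1.39 ± 0.190 in the KO, and the KO differed from treated cells by -0.66 ± 0.207. Leaving out each library in turn gave -0.88 to -0.63 with PT2385 and -1.66 to -1.16 in the KO. In bulk RNA, fewer cells that express a gene and less of its RNA per cell cannot be told apart, which holds for every level given here.

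JUN (ENSG00000177606, chromosome 1, 58776845 to 58784048) was lower in the KO. It stood at 147, 176 and 141 CPM in the WT, at 125, 161 and 130 CPM in PT2385-treated cells, and at 101, 103 and 115 CPM in the KO. Each KO library lay below every WT and every treated library, while treated and WT libraries overlapped. The log2 difference from the WT was -0.53 ± 0.0893 in the KO and -0.16 ± 0.105 with PT2385, and the KO lay -0.39 ± 0.102 from treated cells. JUNB (ENSG00000171223, chromosome 19, 12791486 to 12793315) had the same order of groups, with 62.6, 73.6 and 60.5 CPM in the WT, 52.9, 60.7 and 55.6 CPM with PT2385 and 47.3, 45.2 and 57.2 CPM in the KO. Its KO libraries lay below all WT libraries but overlapped the treated ones. The log2 difference of JUNB from the WT was -0.38 ± 0.104 in the KO and -0.22 ± 0.0878 with PT2385. JUNB shares exon sequence with HOOK2 on the opposite strand, which gave 1548 counts against 6727 for JUNB, and the sources do not state whether counting used strand.

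ATF3 (ENSG00000162772, chromosome 1, 212565334 to 212620777) was at 12, 11.1 and 6.83 CPM in the WT, at 6.35, 5.51 and 5.63 CPM with PT2385 and at 7.10, 4.67 and 8.70 CPM in the KO. The treated libraries lay close together and below all WT libraries, but WT replicate 3 was within 1 CPM of the highest of them. KO libraries overlapped both other groups. The log2 difference from the WT was -0.78 ± 0.200 with PT2385 and -0.54 ± 0.249 in the KO, and in the KO the value moved from -0.76 without KO replicate 3 to -0.32 without KO replicate 2.

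FOSL1 (ENSG00000175592, chromosome 11, 65892049 to 65900573) and IER3 (ENSG00000137331, chromosome 6, 30743199 to 30744548) showed no separation of groups. FOSL1 was at 109, 136 and 146 CPM in the WT, 119, 132 and 173.5 CPM with PT2385 and 128, 90.09 and 178 CPM in the KO. IER3 was at 65.7, 80.2 and 73.9 CPM in the WT, 73.7, 75.4 and 80.7 CPM with PT2385 and 71.7, 49.96 and 100.3 CPM in the KO. For both genes the KO held the lowest and the highest library of all 9. Their log2 differences from the WT were 0.11 ± 0.130 and 0.06 ± 0.0796 with PT2385, and 0.03 ± 0.194 and 0.03 ± 0.191 in the KO. The sign in the KO turned when a KO library was left out, with FOSL1 running from -0.25 to 0.24 and IER3 from -0.26 to 0.25.

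IER2 (ENSG00000160888, chromosome 19, 13150411 to 13154911) was the best repeated of the members, with a coefficient of variation of 2.78% to 4.11% within groups. It was at 47.8, 51.9 and 49.6 CPM in the WT, 61.1, 57.4 and 58.8 CPM with PT2385 and 58.5, 57.1 and 60.3 CPM in the KO. Every treated and every KO library lay above every WT library, and the altered groups overlapped each other. The log2 difference from the WT was 0.24 ± 0.0692 with PT2385 and 0.25 ± 0.0675 in the KO.

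EGR1 (ENSG00000120738, chromosome 5, 138465479 to 138469303) was higher in the treated cells at a low level of expression. It gave 15, 4 and 9 counts in the WT, 52, 18 and 35 in PT2385-treated cells and 22, 16 and 29 in the KO. These are 1.26, 0.329 and 0.749 CPM, then 4.18, 1.34 and 2.46 CPM, and 1.70, 1.12 and 1.99 CPM. Treated libraries lay above all WT libraries, with the lowest treated and the highest WT library within 0.1 CPM, and the KO overlapped both groups. Replicate 2 was the lowest in each group. The log2 difference from the WT was 1.75 ± 0.481 with PT2385 and 1.04 ± 0.422 in the KO, and leaving out a library moved the former between 1.28 and 2.27. The latter ran from 0.67 without WT replicate 2 to 1.57 without WT replicate 1. From summed counts, treated cells held 3.37 times the WT level (95% exact binomial interval 2.21 to 5.32), and the KO held 2.06 times (1.31 to 3.33), where the intervals cover counting error only.

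FOSB (ENSG00000125740, chromosome 19, 45467995 to 45475179) gave 7, 4 and 3 counts in the WT, 12, 8 and 12 with PT2385 and 18, 18 and 15 in the KO. The KO libraries lay above all others, and the treated libraries lay above the WT by a margin of under 0.01 CPM between the nearest pair. The KO held 3.14 times the WT level from summed counts (1.71 to 6.14), with a fitted log2 difference of 1.64 ± 0.399, and treated cells held 2.06 times (1.07 to 4.17). FOSB lies within ERCC1, which runs on the opposite strand without a shared exon and gave 3571 counts against 97 for FOSB. ERCC1 itself was at 31.6, 29.8 and 29.4 CPM in the WT, treated and KO groups, and its part in the FOSB counts was not tested.

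FOS (ENSG00000170345, chromosome 14, 75278826 to 75282230) gave 1, 4 and 0 counts in the WT, 7, 1 and 2 with PT2385 and 3, 5 and 7 in the KO. Counts of 3 or fewer were taken as the floor of detection, and 5 of the 9 libraries lay at or under it. The ratio to the WT from summed counts was 1.80 with PT2385 (0.561 to 6.71) and 2.58 in the KO (0.892 to 9.08), so a difference was not detectable at this depth in either group.

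**Figure D3:**
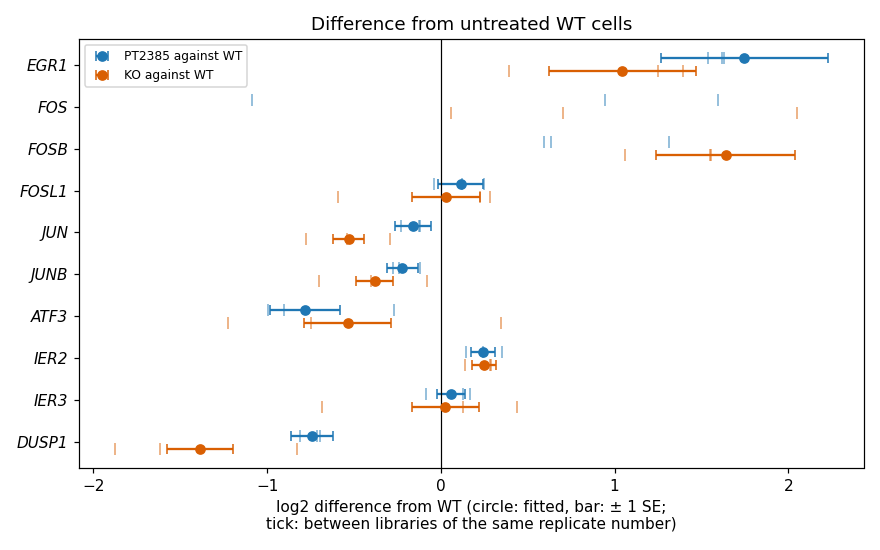
Log2 difference from the WT for each gene, with circles for the fitted value and bars for 1 SE on the x axis, ticks for libraries of the same replicate number, PT2385 in blue and the KO in orange. DUSP1 sits at -0.74 and -1.39 and EGR1 at 1.75 and 1.04, and genes with ticks but no circle had too few counts for the fit.

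As a count over the members, 8 of the 10 passed the filter on low counts in the comparison of PT2385 with the WT, with FOS and FOSB left out, and 9 in each comparison of the KO, with FOS left out. Against the WT, EGR1 passed only through the treated or KO libraries, where it was higher, and FOSB only through the KO libraries. Their calls are therefore no support for a difference. With PT2385, 1 of the 8 (EGR1) was called higher at an adjusted p under 0.05 and 2 (ATF3 and DUSP1) lower, where 3.08% of all 15089 genes tested were called higher and 4.62% lower. Groups did not overlap for 2 higher and 2 lower members, beside 13.4% and 12.5% of all genes. In the KO against the WT, 2 of 9 (FOSB and IER2) were called higher and 3 (JUN, JUNB and DUSP1) lower, where 14.7% and 15.4% of 15192 genes were called, and the same members had groups that did not overlap, beside 21.0% and 23.0%. In the KO against treated cells, 0 of 9 were called higher and 2 (JUN and DUSP1) lower, beside 8.47% and 10.3%, and groups did not overlap for 1 higher member (FOSB) and those 2 lower ones, beside 16.6% and 18.5%. The members were chosen with these contrasts known, so nothing is read from these shares. The median log2 difference of the members was -0.05 with PT2385 and 0.03 in the KO, near the medians of 0.001 and 0.004 over all genes.

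The calls held to different degrees when a library was left out, which also leaves fewer libraries in the fit. The members were chosen with these values known, so a kept call describes the fit and is no test of the member. With PT2385, DUSP1 was called in each of the 6 fits that left out a library, whereas ATF3 was not called without WT replicate 1, WT replicate 2 or treated replicate 2, and EGR1 was not called without any 1 of the WT libraries or without treated replicate 1. The differences themselves stayed between -0.99 and -0.63 for ATF3, and that of EGR1 was largest without WT replicate 1. In the KO against the WT, FOSB, JUN and DUSP1 were called in each of the 6 fits. FOSB entered the main fit only through the KO libraries, where it was higher, so its kept call adds no support. JUNB was not called without WT replicate 2, KO replicate 1 or KO replicate 2, and IER2 not without WT replicate 1 or WT replicate 3, while the differences stayed between -0.49 and -0.30 for JUNB and between 0.22 and 0.27 for IER2. In the KO against treated cells, JUN was not called without treated replicate 2 or without KO replicate 1 or 2. DUSP1 lost its call in that comparison without treated replicate 1 or 2 or KO replicate 1 or 2, and over the 6 fits the log2 differences ran from -0.45 to -0.26 for JUN and from -0.94 to -0.44 for DUSP1. The WT libraries are shared by the PT2385 and KO comparisons, so the values above stand side by side and are not independent of each other.

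For 5 of the 10 genes, FOSL1, IER3, DUSP1, ATF3 and JUNB, the coefficient of variation was largest in the KO, and for the other 5 it was smallest there. For FOSL1, IER3, DUSP1 and ATF3, KO replicate 3 was the highest and KO replicate 2 the lowest of the group, with deviations from the group mean of 0.49, 0.50, 0.48 and 0.39 log2 units for replicate 3 and -0.49, -0.51, -0.51 and -0.49 for replicate 2. Coefficients of variation in the KO were 33.4% for FOSL1, 34.1% for IER3, 33.4% for DUSP1 and 29.8% for ATF3. With PT2385 they were 20.1%, 4.75%, 16.5% and 7.78% in the same order, and in the WT 14.7%, 9.93%, 13.0% and 27.7%, so that ATF3 varied about as much in the WT as in the KO. These 4 genes thus shared an order of libraries within the KO, and EGR1, JUNB and IER2 had the same order with smaller deviations. Replicates 3 and 2 lay at 0.32 and -0.43 for EGR1, 0.205 and -0.136 for JUNB, and 0.041 and -0.038 for IER2. A KO mean of FOSL1 or IER3 near the WT mean covers libraries on both sides of it.

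**Figure D4:**
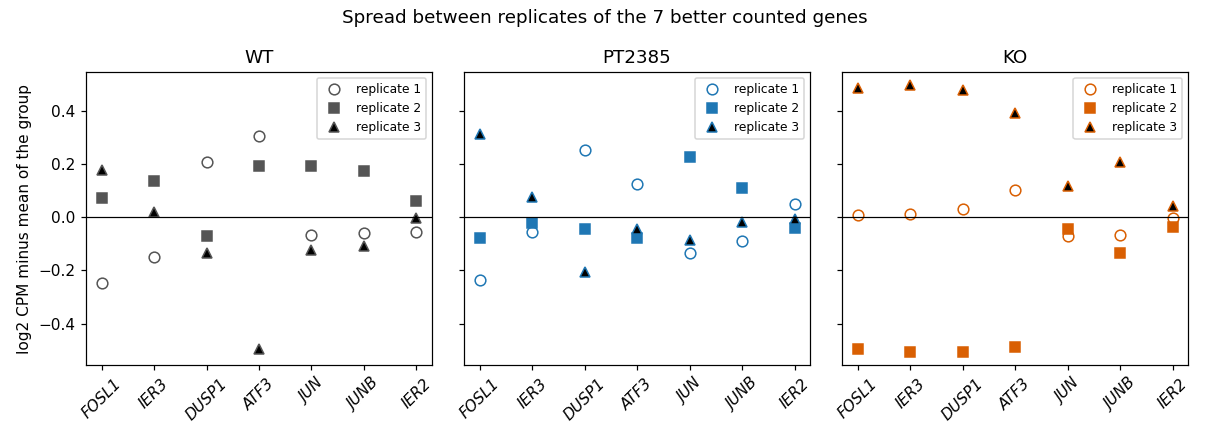
Log2 CPM minus the mean of the group on the y axis for the 7 better counted genes, in 1 panel per group and with a symbol per replicate. In the KO panel, replicate 3 lies up to 0.50 above and replicate 2 up to 0.51 below the mean for FOSL1, IER3, DUSP1 and ATF3.

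The genes whose log2 CPM followed each well-counted member most closely were sought among 11486 genes over the 9 libraries. These libraries fall into 3 groups and share the same processing, so the coefficients describe the pattern only. The closest to DUSP1 was CHEK1, with Pearson's r of 0.987, and the closest to JUNB was METTL8, with 0.981. JUN was followed most closely by APEX1 (0.97), IER2 by LRP12 (0.966) and FOSL1 by MRPS18B (0.964). ATF3 was followed most closely by KLF6 (0.939), an immediate early zinc finger factor, and IER3 by ZBTB14 (0.955). For 6 of the 7 members the closest gene was from outside the lists of related genes. Those lists hold only 156 genes, so most of the 11486 genes searched lie outside them and nothing is read from this count.

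Genes around the members in the same pathway were described from lists, and here edgeR adjusted p-values are over all genes tested. Counts called in a list stand against 3.08% of all genes called higher and 4.62% lower with PT2385, and 14.7% and 15.4% in the KO, and list medians against medians of 0.001 and 0.004 over all genes. No list was tested as a group. Of 12 other AP-1 and small bZIP genes, 9 were tested. With PT2385, 0 were called in either direction, although 3 had an unadjusted p under 0.05, and in the KO 0 were higher and 2 lower, with medians of -0.19 and -0.25. These were FOSL2, at -0.39 ± 0.0614 log2 units (adjusted p = 0.000660), and MAFG, a small MAF partner, at -0.25 ± 0.0696 (adjusted p = 0.0181), and MAFG was not called without WT replicate 1, WT replicate 2 or KO replicate 2 (adjusted p up to 0.0776). Of 42 other immediate early genes 36 were tested, and 6 rose and 6 fell in each comparison with the WT, with medians of 0.03 with PT2385 and -0.125 in the KO. The equal counts stand against unequal shares of all genes. With PT2385, HES1, a Notch target, rose by 1.48 ± 0.239 log2 units (adjusted p = 0.00210), and by 0.75 ± 0.213 in the KO (adjusted p = 0.0205). ZFP36, which destabilises short-lived messages, fell by 1.01 ± 0.169 with PT2385 (adjusted p = 0.00263) and lay at -0.48 ± 0.179 in the KO (adjusted p = 0.0652). KLF4 rose by 1.74 ± 0.188 in the KO (adjusted p = 4.56e-05) and lay at 0.36 ± 0.171 with PT2385 (adjusted p = 0.256). NFIL3 fell by 1.04 ± 0.0948 in the KO (adjusted p = 1.25e-05) and by 0.67 ± 0.0848 with PT2385 (adjusted p = 0.000332). CCN2, a matricellular gene, rose in both, by 1.0 ± 0.140 (adjusted p = 0.000732) with PT2385 and by 1.38 ± 0.238 (adjusted p = 0.00119) in the KO.

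Of 22 genes of ERK feedback and output 18 were tested, of which 4 rose and 2 fell with PT2385, and 6 rose and 4 fell in the KO, with medians of 0.165 and 0.23. ERRFI1, an inhibitor of the EGF receptor, fell by 1.98 ± 0.0783 log2 units with PT2385 (adjusted p = 1.04e-08) and by 2.21 ± 0.0695 in the KO (adjusted p = 3.28e-09). CCND1, which encodes cyclin D1, fell by 1.87 ± 0.156 (adjusted p = 8.99e-06) and 2.03 ± 0.225 (adjusted p = 5.67e-05). DUSP5, a nuclear ERK phosphatase related to DUSP1, rose by 1.45 ± 0.179 with PT2385 (adjusted p = 0.000264) and by 1.31 ± 0.312 in the KO (adjusted p = 0.00836), opposite in sign to DUSP1. The KO and WT libraries overlapped in CPM of DUSP5, which had a coefficient of variation of 43.8% in the KO. Of the 26 RAS, RAF, MAPK and SRF cofactor genes, all tested, 0 rose and 2 fell with PT2385, and 4 rose and 5 fell in the KO, with medians of -0.02 and 0.004. MAP2K1, which encodes the ERK kinase MEK1, fell by 1.20 ± 0.0944 in the KO (adjusted p = 3.80e-06) and by 0.45 ± 0.0872 with PT2385 (adjusted p = 0.00801), the latter not called without WT replicate 2 or treated replicate 2 (adjusted p up to 0.0527).

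**Figure D5:**
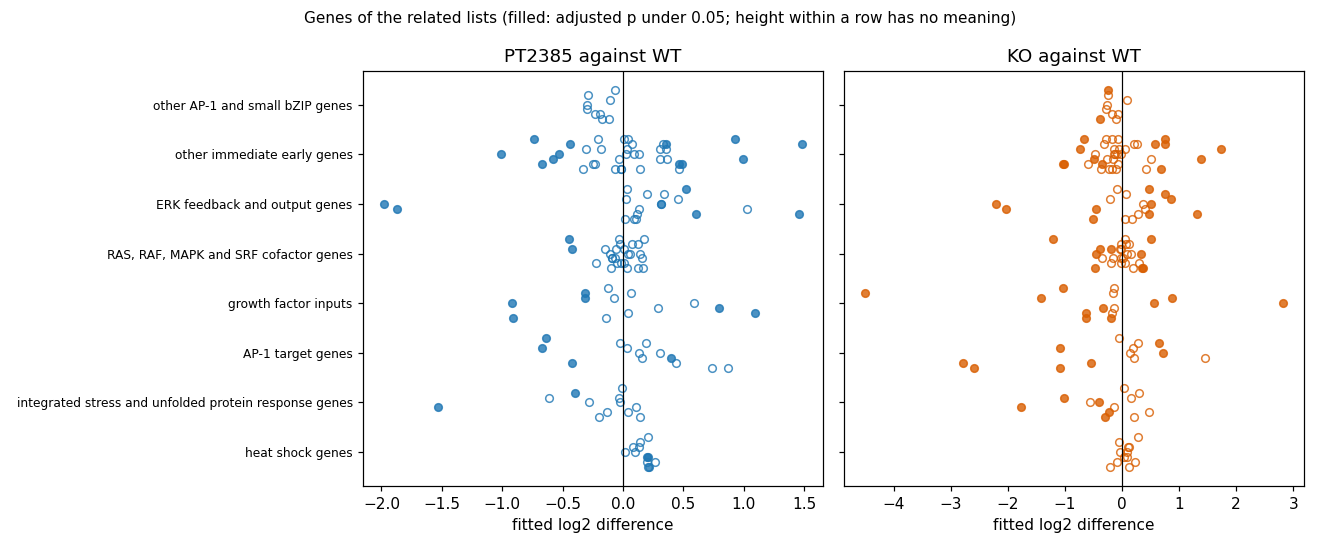
Fitted log2 difference from the WT on the x axis for the tested genes of 8 related lists, 1 point per gene, in a panel for PT2385 and a panel for the KO, with filled points for an adjusted p under 0.05. Of 139 genes tested with PT2385 16 were called higher and 19 lower, and of 140 in the KO 21 were called higher and 34 lower.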

How the data were processed

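RNA of 9 libraries, 3 each of untreated WT cells, PT2385-treated WT cells and the HIF2α KO, was sequenced. The authors trimmed reads with cutadapt, aligned them to GRCh38 (hg38) with STAR and counted them on genes with featureCounts, and deposited the raw counts per gene. The annotation release, the strandedness of counting and tool versions are not given in the sources used here. All 9 columns were matched to samples by name, and 0 columns were left unmapped. Of 58735 gene identifiers, 58207 were paired with a symbol and position in GENCODE annotation of GRCh38. Transcript lengths are those of the canonical transcript.

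Each pair of groups was compared on its own libraries with edgeR 4.0.16 in R 4.3.3, with TMM scaling, filterByExpr (minimum count 10), a quasi-likelihood F test, and p-values adjusted by the Benjamini-Hochberg method over all genes tested. An adjusted p under 0.05 was a call. The SE is the log2 difference divided by the square root of F. With 3 libraries against 3, an exact permutation test cannot go below p = 0.1, so single values were not tested that way. Pathway genes named in the text are the called genes with the largest log2 differences in each list, up to 3 per list, and genes outside this rule were named after their values were seen. The members and lists were chosen with earlier results of these data known. The alternatives were DESeq2 1.42.0, other scalings, other filters, a replicate block, 1 model for all libraries, a stricter threshold and leaving out each library. The same steps were tested on simulated counts.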

Additional observations from a re-analysis of the deposited data

Results flagged for a closer look

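3 genes of the related lists were called in opposite directions from the WT in PT2385-treated cells and in the KO. They were also called in the KO against treated cells directly (edgeR, adjusted over all genes). That direct call was part of the rule that picked them, so its adjusted p is no further test. ID3, an inhibitor of basic helix-loop-helix factors, was at 93.2 CPM in the WT, 130.7 in treated cells and 45.6 in the KO, and the KO lay -1.52 log2 units from treated cells (adjusted p = 1.51e-06). AREG, which encodes the EGF receptor ligand amphiregulin, was at 4.79, 10.3 and 3.07 CPM in the same order, with a direct difference of -1.74 (adjusted p = 5.54e-05). EREG, which encodes the related ligand epiregulin, was at 357.6, 623.8 and 280.3 CPM, with a direct difference of -1.16 (adjusted p = 1.87e-05), while its KO and WT libraries overlapped. None of the 10 immediate early genes was called in opposite directions.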

How the results depend on the processing

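The log2 differences of the members moved by less than 1 SD between replicates in 359 of 360 alternatives, the exception being FOSB in the KO against the WT, at 2.05 without WT replicate 1. That limit is loose, since leaving out a library can hardly move a group mean by as much, so this count is no evidence of stability. 0 called differences changed sign, while uncalled ones near 0 did, such as FOSL1 (-0.25 to 0.24) and IER3 (-0.26 to 0.25) in the KO and FOSL1 with PT2385 (-0.05 to 0.22). Of 542 alternatives for the named pathway genes, 505 kept their call and 37 lost it. The counts of calls moved more, and those of members are description only, since the members were chosen with these values known. With an adjusted p under 0.01 in place of 0.05, calls with PT2385 went from 1162 to 516 genes, 3 to 1 members and 35 to 23 list genes, those of the KO against the WT from 4566 to 2788, 5 to 3 and 55 to 36, and those of the KO against treated cells from 2897 to 1657, 2 to 0 and 34 to 20. Members called in the latter were 1 with DESeq2 and 1 with at least 10 counts in every library. With PT2385, IER2 was also called under upper-quartile and library-size scaling and in 1 model of all 9 libraries, in which ATF3 was not called, and EGR1 was not tested with at least 10 counts in every library. In the KO against the WT, EGR1 and ATF3 were also called with no filter, and FOSB was not tested with at least 10 counts in every library. Leaving out a library gave 574 to 1451 genes, 1 to 3 members and 23 to 39 list genes with PT2385, 3344 to 5094, 4 to 6 and 41 to 67 in the KO against the WT, and 1836 to 3190, 0 to 3 and 23 to 37 in the KO against treated cells. The cause was not tested, though fewer libraries enter each of these fits.

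Libraries numbered 1 and those numbered 3 deviated together in every comparison, but those numbered 2 hardly did, so the main fits left replicate number out. Correlations of same-numbered libraries were 0.314, 0.073 and 0.295 between treated and WT cells and 0.204, 0.005 and 0.322 between KO and WT. Between KO and treated cells they were 0.243, 0.035 and 0.3. Every library correlated best with its own number in the first of these comparisons but not in those of the KO. With a replicate block, calls were 2305 genes, 6 members (JUN, JUNB and IER2 gained) and 64 list genes with PT2385, 5501 genes and 6 members (EGR1 gained) in the KO against the WT and 3783 genes and 2 members in the KO against treated cells. Depth limits EGR1, FOSB and FOS most, whose libraries held at most 52 counts each.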

Other observations

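Further lists held growth factor genes, AP-1 targets and stress genes (edgeR, adjusted over all genes), and none was tested as a group. Their counts stand against 3.08% of all genes called higher and 4.62% lower with PT2385, and 14.7% and 15.4% in the KO. Of 15 growth factor and receptor genes 13 were tested with PT2385, of which 2 rose and 4 fell, and 14 in the KO, of which 3 rose and 7 fell, with medians of -0.08 and -0.18. PDGFB, which encodes a platelet-derived growth factor chain, fell by 0.92 ± 0.0851 log2 units with PT2385 (adjusted p = 2.23e-05) and by 1.42 ± 0.0676 in the KO (adjusted p = 7.58e-08). TGFA, an EGF receptor ligand and a HIF2α target, fell by 0.91 ± 0.124 with PT2385 (adjusted p = 0.000615). Of 15 AP-1 target genes 13 were tested, of which 1 rose and 3 fell with PT2385, and 2 rose and 5 fell in the KO, with medians of 0.16 and 0.15. LIF, which encodes leukaemia inhibitory factor, fell by 0.42 ± 0.0597 log2 units with PT2385 (adjusted p = 0.000763).

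Of 12 genes of the integrated stress and unfolded protein responses, all tested, 0 rose and 2 fell with PT2385, and 0 rose and 5 fell in the KO, with medians of -0.08 and -0.18. TRIB3, a pseudokinase induced by ATF4, fell by 1.53 ± 0.0964 with PT2385 (adjusted p = 7.29e-07) and by 1.76 ± 0.153 in the KO (adjusted p = 8.44e-06). ATF4 itself fell by 0.29 ± 0.0763 in the KO (adjusted p = 0.0141), which was not called without WT replicate 1 or WT replicate 2 (adjusted p up to 0.0670). Of 12 heat shock genes, all tested, 3 rose and 0 fell with PT2385, and 0 were called in the KO with edgeR, where 2 had an unadjusted p under 0.05, with medians of 0.20 and 0.085. HSPA8, the constitutive HSP70, rose by 0.21 ± 0.0551 with PT2385 (adjusted p = 0.0404), and was not called without WT replicate 1, WT replicate 2 or treated replicate 2 (adjusted p up to 0.183).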
